A study of Xenopus laevis with 32 samples.

Results

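The ifrd1 genes of the frog Xenopus laevis were followed through oocyte maturation. They are every gene whose name starts with ifrd1, and there were 2 of them, the homeologs ifrd1.L and ifrd1.S, which lie on the long and the short copy of the same chromosome of this allotetraploid frog. Both were among the 11765 names listed a single time in the RNA level table and among the 13344 genes of the poly(A) site table. Only ifrd1.L was among the 6497 genes of the polysome share table. The gene was selected on measured values, namely the RNA levels of ifrd1.L, which were very high at some stages and unstable between them. Its levels are therefore given as a description without a test, whereas its polysome share, which did not enter the choice, was tested.

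IFRD1, also called TIS7 or PC4, is known from mammals as an immediate-early gene, induced within a short time by growth factors or phorbol ester without new protein synthesis. Its protein acts in mammalian cells as a transcriptional co-regulator that binds the SIN3 and histone deacetylase corepressor complex, and it has been studied mainly in regenerating muscle, gut and neutrophils. In human cells, the decay of IFRD1 mRNA depends on a short open reading frame upstream of the coding sequence. The paralog IFRD2 was found bound to idle, non-translating ribosomes in rabbit reticulocytes. A growing frog oocyte accumulates maternal mRNA, and during maturation it makes no new transcripts to speak of, so that mRNAs are regulated mainly through their poly(A) tails and their loading onto ribosomes.

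The later stages were oocytes taken 90 minutes after the maturation hormone progesterone was added (PG90), in meiosis I (MI), in interkinesis, which separates the meiotic divisions, and in meiosis II (MII). They are compared with stage VI oocytes that had received no progesterone. Extracts of each stage were run on sucrose density gradients, and polyadenylated RNA was selected with an oligo(dT) kit and sequenced from the messenger ribonucleoprotein, monosome and polysome fractions, in 6 libraries a stage and 30 in all. Another 2 lanes held PAS-seq, a method that reads RNA 3' ends, of stage VI oocytes. No strain, animal number, oocyte pooling or genotype is given for any group. The libraries of each stage are numbered as replicates 1 and 2. RNA levels and polysome shares were deposited as 2 columns a stage, called x and y after their header suffixes. Which suffix belongs to which number is not stated. The columns were treated as the 2 replicates of a stage, and the depth behind them is unknown. Of the marker lists, 18 oocyte genes were listed in the RNA level table, with summed levels from 11400 to 18523 in x and from 3868 to 5797 in y over the 5 stages. Most of these sums came from h1foo.S, at 7597 in x and 4228 in y at stage VI, and h1foo.L, at 2409 and 1346. The figla.L level ran from 18.3 to 495 in x and from 1.65 to 323 in y. The oocyte symbols buc, dppa2 and vg1 were not listed. The median rank at stage VI was 5046.5 in x and 4598.5 in y for the oocyte genes. It was 6494 and 4385.5 for the genes of the somatic list named next. Of 20 symbols for follicle and other ovarian somatic cells only cyp17a1.L and vim.L were listed. Their summed levels ran from 70.9 to 114 in x and from 11.7 to 33.6 in y, and the cell type behind these levels was not tested. Whether cyp17a1.L and vim.L come from somatic cells or from the oocyte is thus unknown, and their levels are not read as somatic. Of 9 blood cell symbols 0 were listed. In x vim.L was 30.3 for stage VI, 31.1 for PG90, 69.4 for MI, 22.2 for interkinesis and 28.8 for MII, and in y it was 22.0 for stage VI, 4.85 for PG90, 7.63 for MI, 2.54 for interkinesis and 2.22 for MII. In y the vim.L level was thus lower at the later stages than at stage VI, as the ifrd1.L level was from MI on. In x vim.L was 28.8 at MII and 30.3 at stage VI, whereas ifrd1.L was 1073-fold lower at MII. The cyp17a1.L level lay between 44.6 and 49.9 in x and between 8.36 and 13.5 in y. The part of somatic cells in the ifrd1.L levels was not tested. That table holds only values above 1, so that an unlisted gene need not be at zero.

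The RNA level of ifrd1.L was among the highest in the stage VI oocyte and was near the bulk of the transcriptome at MII. In x it was 91040 in stage VI, 249508 in PG90, 404509 in MI, 96746 in interkinesis and 84.9 in MII, on the authors' level scale, whose unit is not stated. In y it was 11053 in stage VI, 14179 in PG90, 40.2 in MI, 28.8 in interkinesis and 29.4 in MII. The values therefore fall into a high class, with 4 stages of x and the stages VI and PG90 of y, and a low class, with MII in x and the last 3 stages in y, and no value lies between 84.9 and 11053. The ifrd1.L level was thus lower at MII than at stage VI in both column sets, whereas at MI and interkinesis x was in the high and y in the low class. At MII it was 1.89 times the level of the median name in x, against 2036 times at stage VI, and in y it was 3.39 times the median name at MII, against 1160 times at stage VI.

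**Figure D1:**
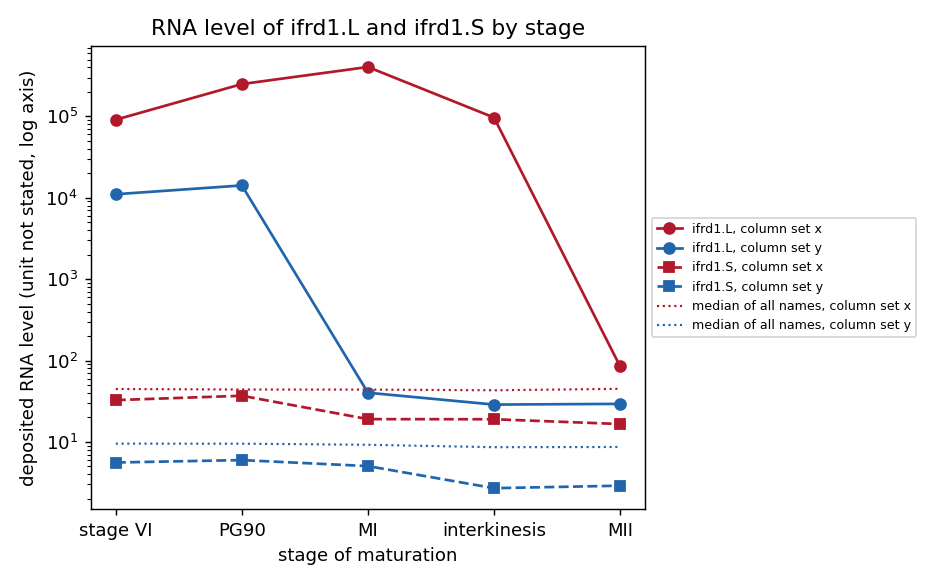
RNA level of ifrd1.L and ifrd1.S on a log axis (authors' scale, unit not stated) at the 5 stages, from stage VI to MII, in column sets x and y, 1 point per column, with the median of all 11765 names. The ifrd1.L level is high through interkinesis in x and through PG90 in y, while ifrd1.S stays between 16.6 and 36.9 in x and between 2.70 and 5.98 in y.

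Against stage VI, the direction of ifrd1.L was shared by x and y at PG90 and at MII only. At PG90 the level was 2.74 times that of stage VI in x and 1.28 times in y. At MI it was 4.44 times the stage VI level in x, whereas in y it was 275-fold lower. At interkinesis the level was 1.06 times that of stage VI in x and 384-fold lower in y. At MII it was 1073-fold lower than at stage VI in x and 377-fold lower in y. As a mean log2 ratio over the column sets, the change was 0.91 ± 0.77 in PG90, -2.98 ± 7.25 in MI, -4.25 ± 6.13 in interkinesis and -9.31 ± 1.07 in MII (SD, n = 2). The spread between x and y exceeded the mean change at MI and interkinesis. The gene was chosen on these levels, so the spread at MII is given as a description and supports nothing.

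The step with the large decrease of ifrd1.L differed between the column sets. In x it was the step to MII, where the level was 1140-fold lower than at interkinesis, the largest decrease of any name in that step. In y it was the step to MI, where the level was 352-fold lower than at PG90, and only tmem55a.S had a larger decrease in that step. In x the MI level was 1.62 times the PG90 level, and the MII level in y was 1.02 times that of interkinesis. Decreases of 100-fold or more were rare in every step. From stage VI on, 2, 3, 3 and 6 names showed one in the successive steps of x, and 2, 8, 6 and 4 names in those of y. Less polyadenylated ifrd1.L RNA per oocyte, a shorter poly(A) tail that is captured less well by oligo(dT), and fewer oocytes with a high level cannot be told apart in these bulk libraries. Whether the decrease is technical, as the spread between the columns may be, was not tested either.

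MII is the stage at which the ifrd1.L level was low in both column sets. Of the 11765 names, 396 were at least 2-fold lower at MII than at stage VI in both column sets, which is 3.37%. The ifrd1.L level was used to choose the gene, so nothing is read from its place among these names. At least 10-fold lower in both were 16 names, or 0.136%, and at least 100-fold lower in both was 1 name, ifrd1.L itself. At PG90, MI and interkinesis, 0 names were at least 100-fold lower than stage VI in both column sets. The ratio of ifrd1.L at MII to stage VI was the lowest of all names in x and the second lowest in y, while the median name had a ratio of 1.05 in x and 1.04 in y.

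**Figure D2:**
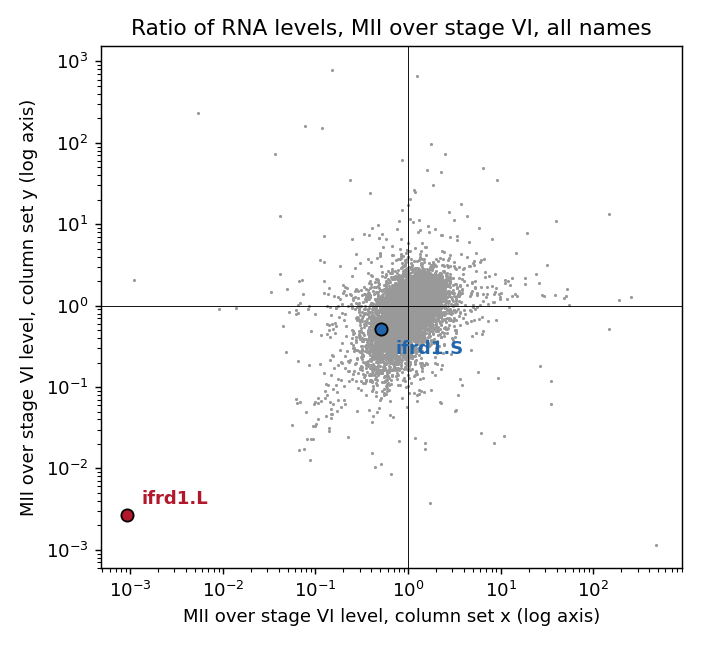
Level ratio of MII over stage VI in column set y against that in x, on log axes, for all names listed a single time. The points of ifrd1.L and ifrd1.S are marked. The ifrd1.L point lies at the lower left, 1073-fold lower in x and 377-fold lower in y.

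The rank of ifrd1.L among the 11765 names followed the same course. In x it ranked 6 in stage VI, 4 in PG90, 2 in MI, 6 in interkinesis and 4002 in MII. In y its rank was 27 in stage VI, 24 in PG90, 2302 in MI, 2837 in interkinesis and 2812 in MII. In every column the highest name was tRNA-Ser. Whether the levels are per transcript length is not stated, so ranks between genes describe the deposited values only. The gene took 1.33% of the summed levels of x at stage VI and 4.66% at MI, against 0.00103% at MII, and in y 0.000312% at MII, against 0.241% at stage VI.

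Other names as high at stage VI had ratios nearer to 1. Among the 30 highest names of each column set at stage VI, 19 were in common, ifrd1.L and 18 others, and 13 of the 18 were still among the 30 highest in both sets at MII. The ratio of MII to stage VI was 0.000932 in x and 0.00266 in y for ifrd1.L. In the 18 others it ran from 0.348, in LOC108705102, to 1.63 in x, with a median of 1.02. In y it ran from 0.454, in the ribosomal protein gene rpl7.L, to 2.64, with a median of 0.702. Since ifrd1.L was chosen for a high and unstable level, this contrast follows from the choice and is a description only.

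Over all 5 stages, the highest ifrd1.L level was 4766 times the lowest in x, the widest range of any name, and 493 times in y, the seventh widest. A wide range was part of the choice of the gene, so nothing is read from these places. The ifrd1.S range was 2.23-fold in x and 2.21-fold in y, and the median name ranged 1.57-fold in x and 1.69-fold in y. A range of at least 100-fold in both column sets was seen in 6 names, which is 0.051% of the table, and 22 names in x and 32 in y had one. The other 5 were LOC108714007, prnp, the prion protein gene, kifap3.L, which encodes a kinesin-associated protein, unc119b.L, a carrier of lipid-modified proteins, and arl4a.L, a small GTPase of the ARF family.

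The stage of the highest level differed between x and y in each of the 6 names. For prnp, x was 4.63 in stage VI, 7.56 in PG90, 5.64 in MI, 814 in interkinesis and 2199 in MII, whereas y was 2208 in stage VI, 1739 in PG90, 4260 in MI, 2147 in interkinesis and 2.57 in MII. For unc119b.L, x was 997, 1031, 11.3, 1336 and 9.17 from stage VI to MII, and y was 4.02, 464, 2.70, 2.95 and 3.64. For arl4a.L, x was 9862 at stage VI and from 96.7 to 136 later, whereas y was 4833 at PG90 and from 19.9 to 22.7 at the other stages. For kifap3.L both sets were high at MI, at 16996 in x and 2055 in y, but y was 5337 at MII, where x was 52.6. Like ifrd1.L, these names had high and low values in each column set, at stages that differed between x and y.

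The stage of the lowest level was the same in x and y in 1 of the 6, kifap3.L at PG90. The direction from stage VI to MII was shared by x and y in 4 of the 6. Among the 86 names with at least a 10-fold range in both sets, the highest stage was shared by 23, or 26.7%, the lowest stage by 30, or 34.9%, and the direction to MII by 53, or 61.6%. Over all 11765 names these shares were 33.0%, 34.3% and 68.1%. The ifrd1.L level was highest in MI in x and in PG90 in y, and lowest in MII in x and in interkinesis in y.

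**Figure D3:**
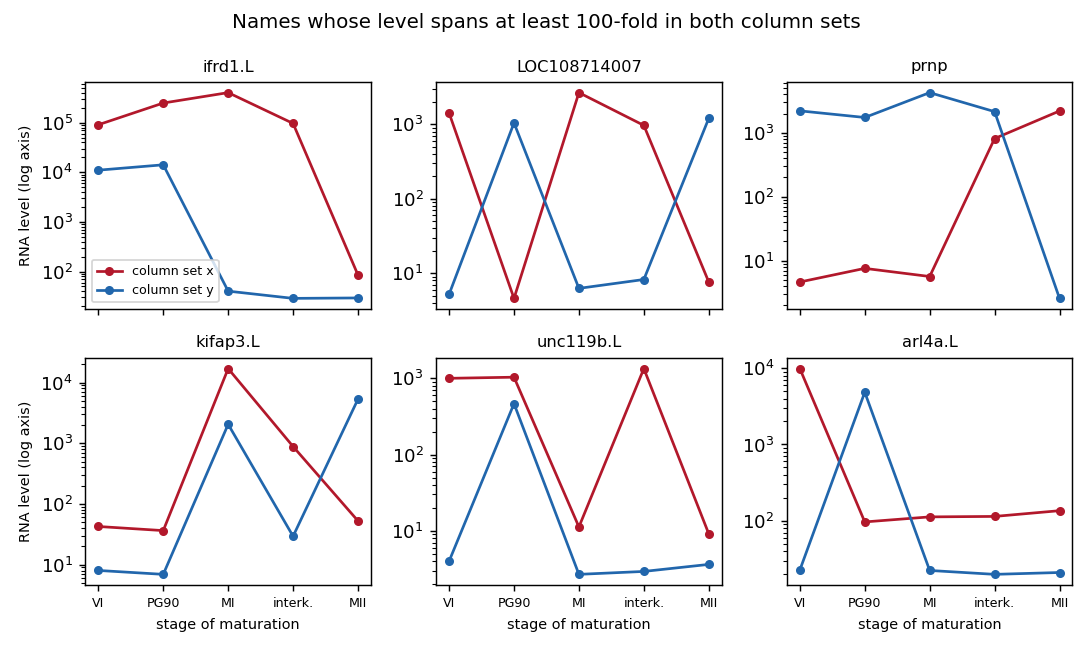
RNA level on a log axis (authors' scale, unit not stated) at the 5 stages in column sets x and y for the 6 names with a range of at least 100-fold in both sets. In each panel the highest stage of x is not that of y, and ifrd1.L has the highest levels of the 6.

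The distance between x and y can be given for each stage as the ratio of the x to the y level. For ifrd1.L it was 8.24 in stage VI, 17.6 in PG90, 10053 in MI, 3363 in interkinesis and 2.89 in MII. For the median name the ratio lay between 4.15 and 4.40, so that y values are lower throughout. At MI and at interkinesis ifrd1.L had the largest x over y ratio of all names, while 95% of names lay between 0.937 and 17.7 at MI and between 1.04 and 22.4 at interkinesis. At stage VI, PG90 and MII the ifrd1.L ratio was within the corresponding 95% of names. These ran from 1.08 to 15.3 at stage VI, from 0.961 to 19.7 at PG90 and from 0.926 to 31.7 at MII. The homeolog ifrd1.S had x over y ratios from 3.78 to 7.03 at all 5 stages.

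The homeolog ifrd1.S was a gene of modest level throughout. In x its level was 32.7 in stage VI, 36.9 in PG90, 19.1 in MI, 19.0 in interkinesis and 16.6 in MII. In y it was 5.59 in stage VI, 5.98 in PG90, 5.05 in MI, 2.70 in interkinesis and 2.90 in MII. Both column sets were highest at PG90, and in both the values at interkinesis and MII were below those at stage VI. The MII level was 0.508 of that at stage VI in x and 0.519 in y, a mean log2 ratio of -0.96 ± 0.02 (SD, n = 2), which is just short of 2-fold in both. The mean log2 ratios of the 2 homeologs at MII were thus both negative and differed in size, -9.31 for ifrd1.L and -0.96 for ifrd1.S.

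Set against its homeolog, ifrd1.L had the highest L over S ratio of the table at the stages at which its level was high. The level of ifrd1.L over that of ifrd1.S was 2788 in stage VI, 6756 in PG90, 21218 in MI, 5091 in interkinesis and 5.11 in MII in x. In y it was 1978 in stage VI, 2370 in PG90, 7.97 in MI, 10.6 in interkinesis and 10.1 in MII. Among the 2312 pairs of homeologs with both names listed, this ratio ranked first at the first 4 stages of x and at the first 2 of y. Once the ifrd1.L level was low, the pair ranked 243 at MII in x, and in y its ranks from MI to MII were 133, 91 and 106. In the low class ifrd1.L was thus from 5.11 to 10.6 times as high as ifrd1.S.

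The poly(A) site table gives a second measure of the RNA in the stage VI oocyte, which did not enter the choice of the gene. The files do not state the genome build of its coordinates. The ifrd1.L gene had 1 site, at base 58068405 of chromosome 3L on the plus strand, with 51 reads, so that 51 of 51 reads lay at it (100%, Wilson 95% interval 93.0 to 100%). The ifrd1.S gene had 2 sites on the minus strand of chromosome 3S, at bases 80126477 and 80142814, 16337 bases apart. Each held 4 of its 8 reads, or 50% (Wilson 95% interval 21.5 to 78.5%). These intervals cover counting error at the listed sites only. Sites with few reads may be unlisted, since none of the other genes with 7 to 10 reads had more than 2 sites. If sites with fewer than 4 reads were unlisted, 8 reads at 2 sites could only be split 4 and 4. The 50% and its interval are therefore no measure of the use of the ifrd1.S sites. The paralog ifrd2, which was listed in neither of the other tables, had 1 site each for ifrd2.L, at base 120732410 of chromosome 4L with 8 reads, and for ifrd2.S, at base 99667872 of chromosome 4S with 32 reads, both on the plus strand.

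A single poly(A) site was the minority case at the read number of ifrd1.L. Of the 1784 other genes with 41 to 63 reads, a number like that of ifrd1.L, 186 had 1 site, or 10.4% (Wilson 95% interval 9.09 to 11.9%). Their median was 4 sites, and the most used site held a median of 58.5% of a gene's reads. The ifrd1.S gene had few reads, and of the 1377 other genes with 7 to 10 reads 74.8% had 1 site. If sites with few reads are unlisted, that share is largely set by the read number and does not describe site use. With 4 reads at each of its sites, the use of the ifrd1.S sites is uncertain.

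In PAS reads ifrd1.L was not among the highest genes. With 51 reads it ranked 3750 of 13344 genes, above 71.4% of them, and the median gene had 26 reads. With 8 reads ifrd1.S ranked 10913. The PAS reads of ifrd1.L were 6.38 times those of ifrd1.S, whereas the stage VI levels were 2788 times as high in x and 1978 times in y. The ratio in PAS reads lay within the range of 5.11 to 10.6 that the levels gave for the low class, at MII in x and from MI on in y. It rests on the 8 reads of ifrd1.S and has a large counting error. It also sets reads of stage VI beside levels of later stages, so nothing is concluded from this likeness.

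The stage VI level of ifrd1.L was far above that of genes with like PAS reads. It was 91040 in x and 11053 in y, against a median of 65.5 in x and 13.2 in y among 1574 such genes with a level. Of these, 1 was above ifrd1.L, hmgn3.L, a nucleosome-binding protein gene, with 152099 in x and 132188 in y. Divided by the PAS reads, the stage VI level of ifrd1.L was 1785 per read in x and 217 in y. These ranked 6 and 16 among the 9963 genes found in both tables, whose medians were 1.67 in x and 0.375 in y. The gene was chosen for its high level, so a high level beside its PAS reads follows in part from the choice. These ranks are a description only. For ifrd1.S the level per PAS read was 4.08 in x and 0.698 in y. Read from the other side, ifrd1.L had 51 PAS reads. The 1111 genes with an MII level in x like that of ifrd1.L had a median of 38 PAS reads, and the 872 genes with a like MII level in y had a median of 48. This sets reads of stage VI beside levels of MII, so nothing is concluded from the likeness. Across genes, which are not independent replicates, Spearman's rho between PAS reads and stage VI level was 0.497 in x and 0.457 in y. The PAS reads come from other libraries than the levels, and what sets the measures apart for ifrd1.L was not tested.

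**Figure D4:**
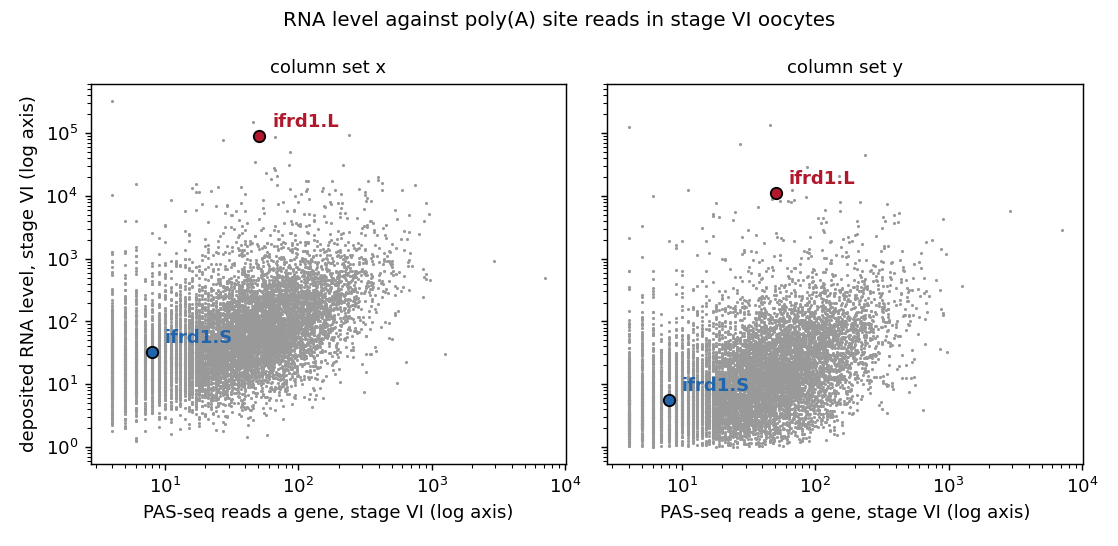
RNA level at stage VI (authors' scale, unit not stated) against PAS-seq reads per gene, both on log axes, in column sets x and y, for the 9963 genes found in both tables. With 51 reads ifrd1.L, which was chosen for its high level, lies far above genes of like read number, at 91040 in x and 11053 in y. With 8 reads ifrd1.S lies within the cloud of genes.

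The polysome share of ifrd1.L, which is the authors' polysome fraction of an unstated total of its RNA, polysomes being mRNA that carries several ribosomes, did not take the same course in x and y. In x it was 0.305 in stage VI, 0.228 in PG90, 0.223 in MI, 0.287 in interkinesis and 0.191 in MII. In y it was 0.266 in stage VI, 0.262 in PG90, 0.273 in MI, 0.252 in interkinesis and 0.300 in MII. The lowest and the highest of the 10 values, 0.191 and 0.305, were both in x. Both PG90 values lay below both stage VI values, whereas the values of MI, interkinesis and MII overlapped with those of stage VI. As a mean over both columns the share was 0.286 ± 0.0276 in stage VI, 0.245 ± 0.0239 in PG90, 0.248 ± 0.0351 in MI, 0.270 ± 0.0250 in interkinesis and 0.245 ± 0.0773 in MII (SD, n = 2). These stage means spanned 0.0405, and 2.85% of the 6497 genes had a smaller span, the median gene spanning 0.120. The span of the means averages columns that differed in direction, since the MII share was below that of stage VI in x and above it in y.

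**Figure D5:**
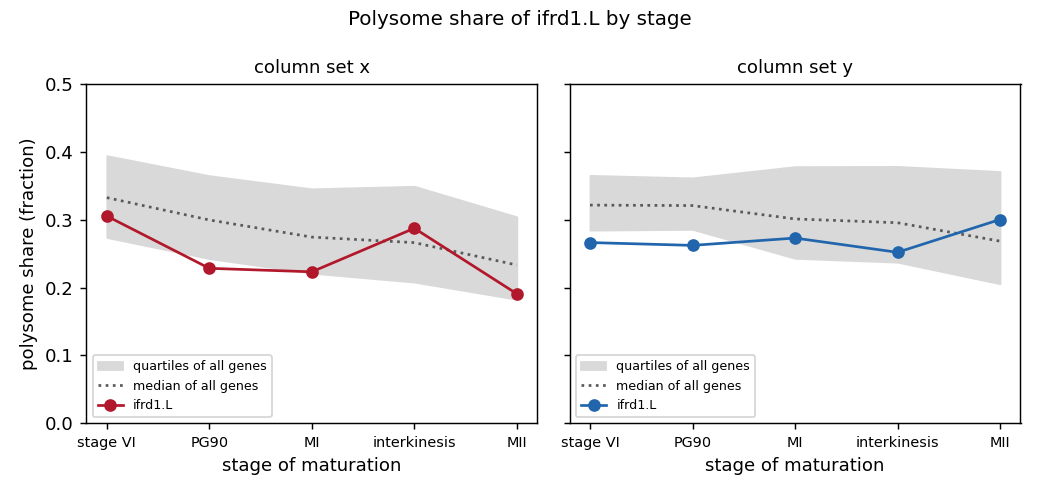
Polysome share of ifrd1.L (fraction, 0 to 1) at the 5 stages, from stage VI to MII, in column sets x and y, with the median and quartiles of all 6497 genes. At MII the ifrd1.L share is 0.191 in x, below the median gene at 0.233, and 0.300 in y, above the median gene at 0.268.

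No change of the ifrd1.L share passed the test. It was tested with limma on log2(share / (1 - share)), called log2 odds, fitted to all genes with p-values adjusted over all 6497. At PG90 the share changed by -0.30 ± 0.35 log2 odds against stage VI (SE; 95% interval -1.06 to 0.46; limma adjusted p = 1). At MI the change was -0.28 (95% interval -1.05 to 0.48; limma adjusted p = 0.734), and at interkinesis it was -0.12 (95% interval -0.88 to 0.65; limma adjusted p = 0.875). At MII it was -0.33 (95% interval -1.09 to 0.44; limma adjusted p = 0.510), with -0.90 in x and 0.24 in y. These intervals leave room for a fall of about 1 log2 odds at each stage, so that an unchanged share is not shown. The sign itself turned at MI, interkinesis and MII when the columns were quantile-normalized, to 0.11, 0.31 and 0.31.

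Between successive later stages the ifrd1.L share likewise passed no threshold. The change was 0.02 at MI against PG90 (95% interval -0.74 to 0.78; limma adjusted p = 0.995), 0.17 at interkinesis against MI (95% interval -0.60 to 0.93; limma adjusted p = 0.999) and -0.21 at MII against interkinesis (95% interval -0.98 to 0.55; limma adjusted p = 0.997). The last step is the one in which the x level was 1140-fold lower at MII, and in x the share changed by -0.77 there, against 0.35 in y. In the step from PG90 to MI, in which the y level was 352-fold lower at MI, the share changed by 0.08 in y and by -0.04 in x. In the steps with the largest decrease in level, the share was thus 0.273 in MI and 0.262 in PG90 in y, and 0.191 in MII and 0.287 in interkinesis in x.

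The ifrd1.L result is read against the whole table, in which few genes passed in the fit without a replicate block. At PG90, MI and interkinesis limma called 0% of the 6497 genes against stage VI. At an unadjusted p under 0.05 were 59 genes (0.908%), 759 (11.7%) and 1041 (16%). It likewise called 0% in the steps MI against PG90, interkinesis against MI and MII against interkinesis, with 313, 226 and 290 genes at an unadjusted p under 0.05. At MII it called 284 genes against stage VI, or 4.37%, with 36 higher and 248 lower. With the column set as a replicate block it called 1654 genes at MII, or 25.5%, and the ifrd1.L adjusted p in limma was 0.422. Centring each column on its median gave 107 higher and 20 lower, and quantile normalization 44 higher and 10 lower. Leaving out 1 column of MII or stage VI gave 106 genes without MII x, 88 without MII y, 0 without stage VI x and 0 without stage VI y.

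The place of the ifrd1.L share among all genes varied between columns. In x, 37.8% of genes had a lower share in stage VI, 19.3% in PG90, 26.0% in MI, 57.8% in interkinesis and 29.1% in MII. In y it was 14.8% in stage VI, 11.9% in PG90, 38.3% in MI, 31.3% in interkinesis and 59.9% in MII. The median gene changed by -0.57 log2 odds at MII, and 63.6% of genes changed more to the negative side than ifrd1.L did. The gap between the x and y shares of ifrd1.L was 0.0390 in stage VI and 0.0338 in PG90, and it was 0.0497 in MI, 0.0354 in interkinesis and 0.109 in MII. The percentage of genes with a smaller gap between x and y was 40.6% for stage VI, 32.1% for PG90, 43.3% for MI, 28.9% for interkinesis and 68.6% for MII.

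The genes with the course of level most like that of ifrd1.L were picked by Pearson correlation over the 10 columns, centred within each column set, among 5882 names with a mean level above the median. They were LOC108698491 (r = 0.965), itpkb-like.L (r = 0.953), mal2.L (r = 0.950), rbm7.S (r = 0.947) and rbm7.L (r = 0.944). The rbm7 genes encode an RNA-binding subunit of the nuclear exosome targeting complex, and itpkb is an inositol trisphosphate kinase. The likeness was one of shape and not of size. The highest level of these 5 was between 1.33 and 2.12 times the lowest in x and between 1.36 and 2.04 times in y. For rbm7.L the level in x was 389 in stage VI, 429 in PG90, 329 in MI, 329 in interkinesis and 202 in MII. In y rbm7.L was 79.8 in stage VI, 89.8 in PG90, 48.2 in MI, 45.0 in interkinesis and 49.3 in MII. Its largest decrease was the step to MI in y and the step to MII in x. The gene was picked for a course like that of ifrd1.L in these same columns, so nothing is read from the shared steps.

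For the polysome share, the 5 genes most like ifrd1.L over the 10 columns were erh.L (r = 0.934), tmcc3.L (r = 0.933), tmpo.S (r = 0.914), ube3a.L (r = 0.913) and znf462-like.L (r = 0.910), of 6496 compared. The tmpo gene encodes a protein of the nuclear lamina, and ube3a a ubiquitin ligase. For tmpo.S the share in x was 0.309, 0.259, 0.216, 0.284 and 0.174 from stage VI to MII, and in y it was 0.260, 0.288, 0.273, 0.226 and 0.313. The genes of a column come from the same libraries, so these correlations are a description and carry no p. With Spearman's rho in place of Pearson's r, 1 of the 5 genes was picked again for the level and 1 of the 5 for the share.

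Other immediate-early genes of growth-factor or phorbol ester response, the class to which IFRD1 belongs in mammals, had 29 rows of the level table and 16 of the share table. In level, 3 of the 29 were at least 2-fold lower at MII than at stage VI in both column sets and 0 higher, against 3.37% of all names lower. They were ier2.L, ier2.S and ier5.S, of the immediate early response family. The ier2.S level was 116 at MII and 330 at stage VI in x, and 4.05 at MII and 34.1 at stage VI in y, ratios of 0.351 and 0.119. The ier2.L ratios were 0.459 in x and 0.153 in y. At least 2-fold lower in both at PG90 were 0 of the 29, against 0.263% of all names, at MI 1, against 0.45%, and at interkinesis 2, against 1.43%. The median log2 ratio of the list at MII was -0.32, against 0.07 over all names. None of the 29 was 100-fold lower in both, as ifrd1.L was.

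In polysome share, 0 of the 16 immediate-early rows were called in any of the contrasts with stage VI, against 4.37% of all genes at MII, and the median change at MII was -0.76 log2 odds, against -0.57 over all genes. With the replicate block 5 of the 16 were called lower at MII, against 22.1% of all genes. The largest changes were in klf6.S, a zinc finger transcription factor, and zfp36l1.L, which promotes decay of AU-rich mRNAs. The klf6.S share was 0.234 ± 0.00925 at MII and 0.454 ± 0.0921 at stage VI (SD, n = 2; limma adjusted p = 0.0579). That of zfp36l1.L was 0.217 ± 0.0518 at MII and 0.412 ± 0.0801 at stage VI (SD, n = 2; limma adjusted p = 0.0684). With the replicate block both genes were called lower (limma adjusted p = 0.0246 for klf6.S and 0.0315 for zfp36l1.L).

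Genes of SIN3 and histone deacetylase corepressor complexes, the kind of complex that IFRD1 binds in mammalian cells, had 31 rows in level and 20 in share. Whether the product of each binds ifrd1 was not tested. In level 1 of 31 was at least 2-fold lower at MII in both sets, sap18.L, a SIN3-associated protein, with ratios of 0.454 in x and 0.280 in y, against 3.37% of all names, and 0 were higher, against 0.977%. The other largest change was that of the scaffold gene sin3b.L, whose ratio was 1.61 in x and 47.0 in y. In share 2 of 20 were called lower at MII, against 3.82% of all genes, and 0 were called at PG90, MI or interkinesis. The median change of the 20 rows at MII was 0.011 log2 odds, against -0.565 over all genes. The share of brms1l.L, a subunit of the SIN3 complex, was 0.147 ± 0.0393 at MII and 0.308 ± 0.0481 at stage VI (SD, n = 2; limma adjusted p = 0.0456). That of rbbp7.S, a histone-binding subunit, was 0.216 ± 0.00295 at MII and 0.434 ± 0.0892 at stage VI (SD, n = 2; limma adjusted p = 0.0497). Both calls were lost with columns centred on their medians (limma adjusted p = 0.157 for brms1l.L and 0.163 for rbbp7.S), under quantile normalization (0.23 and 0.109 in limma) and with a prior without trend (0.0579 and 0.0562 in limma). Both were kept with the untransformed share (0.0462 and 0.0466 in limma) and with the replicate block (0.0174 and 0.0216 in limma). In a fit of the 4 columns alone brms1l.L was kept (limma adjusted p = 0.0475) and rbbp7.S was lost (limma adjusted p = 0.0626). With 1 of the 4 columns left out, the change ran from -1.71 to -1.07 log2 odds for brms1l.L and from -1.85 to -1.10 for rbbp7.S. Such a fit leaves 1 column in a stage, so no call is read from it. With the replicate block 1 of the 20 was called higher and 4 lower, against 3.36% and 22.1% of all genes. The share of ing2.L was 0.574 ± 0.208 at MII and 0.324 ± 0.00688 at stage VI (SD, n = 2; limma adjusted p = 0.106). With the replicate block ing2.L was called higher (limma adjusted p = 0.0478).

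Genes of nonsense-mediated decay, which degrades mRNAs with a premature stop codon and many with an upstream open reading frame, had 24 rows in level and 15 in share. In level 1 of 24 was at least 2-fold higher at MII in both sets, upf3a.L, with ratios of 2.01 in x and 3.11 in y, against 0.977% of all names, and 0 were lower, against 3.37%. The ratios of pnrc2.L, a decapping co-activator, were 0.542 in x and 0.460 in y. In share 1 of 15 was called higher at MII, against 0.554% of all genes, namely magoh.S, a core protein of the exon junction complex. At PG90, MI or interkinesis 0 were called. The median change of the 15 rows at MII was -0.085 log2 odds, against -0.565 over all genes. The magoh.S share was 0.742 ± 0.0524 at MII and 0.401 ± 0.0143 at stage VI (SD, n = 2; limma adjusted p = 0.0456). This call was kept with median-centred columns and was lost under quantile normalization (limma adjusted p = 0.0588) and in a fit of the 4 columns alone (limma adjusted p = 0.0827). It was kept with the untransformed share, a prior without trend and the replicate block (0.0431, 0.0392 and 0.0171 in limma). With 1 of the 4 columns left out, the change ran from 1.83 to 2.39 log2 odds. Such a fit leaves 1 column in a stage, so no call is read from it. With the replicate block 1 of the 15 was called higher and 3 lower, against 3.36% and 22.1% of all genes. The share of the decapping enzyme gene dcp2.L was 0.127 ± 0.00140 at MII and 0.239 ± 0.0529 at stage VI (SD, n = 2; limma adjusted p = 0.101). With the replicate block dcp2.L was called lower (limma adjusted p = 0.0471).

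Factors found on idle ribosomes, the state in which IFRD2 was described, had 15 rows in level and 8 in share, none of them ifrd2. In level 0 of 15 were at least 2-fold higher or lower in both sets at MII, against 0.977% and 3.37% of all names, although eef2.1.L, of elongation factor 2, had ratios of 0.831 in x and 0.187 in y and dap.L of 2.17 in x and 1.12 in y. In share limma called 0 of 8 in any contrast with stage VI, against 4.37% of all genes at MII, and the median change at MII was -0.91 log2 odds. With the replicate block 4 of the 8 were called lower, against 22.1% of all genes. The share of ccdc124.L was 0.221 ± 0.00641 at MII and 0.438 ± 0.0128 at stage VI (SD, n = 2; limma adjusted p = 0.0508). That of eef2.1.S was 0.209 ± 0.0250 at MII and 0.415 ± 0.0540 at stage VI (SD, n = 2; limma adjusted p = 0.0615). With the replicate block both genes were called lower (limma adjusted p = 0.0188 for ccdc124.L and 0.0253 for eef2.1.S).

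Levels of nearby genes on the chromosome could be given in part. By gene order in the RefSeq annotation of assembly Xenopus_laevis_v10.1, which is used for order only, no annotated gene overlapped ifrd1.L or ifrd1.S. Of the 7 nearest genes of ifrd1.L, 2 had a level, and the genes directly next to it, znf277.L and LOC108711130, had none. That of dock4.L, an activator of small GTPases, lay between 27.3 and 30.5 in x and between 3.91 and 7.01 in y at all stages, and that of LOC108711131 between 24.9 and 37.8 in x and between 6.44 and 8.72 in y. Of the 7 nearest genes of ifrd1.S, 2 had a level. That of c7orf60.S, named bmt2.S in RefSeq, lay between 70.8 and 94.7 in x and between 15.1 and 36.4 in y. The other was LOC108713117, directly next to it, which was 36.6 at stage VI and from 2.55 to 4.58 at the later stages in x, whereas in y it was 48.9 at MI and from 1.02 to 2.90 at the other stages.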

How the data were processed

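Polyadenylated RNA of gradient fractions from 5 oocyte stages and PAS-seq of stage VI oocytes were read from 3 tables as deposited. Per the file headers, the authors' polysome share is a fraction per gene and stage in column sets x and y; neither its denominator nor the scaling of the fractions is given. RNA levels deposited by the authors are read as a score of unstated unit, since the values are not whole and all exceed 1; the authors' deposited ratio of a later stage over stage VI was equal to that of their levels. PAS-seq values are a count of reads per site deposited by the authors, without molecular identifiers, in 1 column for both lanes. The submitters' processing notes name Bowtie, Bowtie2, TopHat2 and Cufflinks; their versions, roles and the genome build are not given in the sources used here. The depth behind shares and levels is unknown. Whether x and y are separate animals or cultures is not stated, so p-values measure only the spread between these columns, which may be technical.

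Log2 odds of the share, log2(share / (1 - share)), were fitted for all 6497 genes and 10 columns with stage as the only term in limma 3.58.1 (trended prior; R 4.3.3), two-sided, with Benjamini-Hochberg adjustment within each of 7 contrasts and a threshold of 0.05. The fit was first run on simulated data with columns drawn independently of each other. Only recovery of the size of an added change was required there, so control of false calls with paired columns was not tested. Levels were summarised over names listed a single time, since 178 repeated names appear several times. The differences between x and y correlated between stages over 10 stage pairs. The r ran from 0.173 to 0.451 for shares and from 0.655 to 0.738 for levels, all above 0.1. The column sets were therefore taken, from the data, as pairing the columns. The headers carry the suffixes x and y at every stage but do not state that the columns are paired. Python 3.11.15 and statsmodels 0.14.6 gave the Wilson intervals. Alternatives were quantile normalization, median-centring, a replicate block, fits of the 4 columns compared, the untransformed share, a prior without trend, each column left out, a pseudocount of 1 for levels, x or y alone, sites of at least 10 reads, and sites merged within 24 or 50 nt.

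The members and gene lists were chosen with earlier results of these data known. Named were every ifrd1 and ifrd2 row, the 5 genes most like ifrd1.L in level and in share, list members called against stage VI, and the 2 with the largest change at MII in each list; ier5.S, the other wide-ranging names, names at an extreme and neighbours were chosen after their values were seen.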

Additional observations from a re-analysis of the deposited data

How the results depend on the processing

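The ifrd1.L share passed no threshold in any alternative run. Over the 7 contrasts, 57 values of its change had the same sign and 13 the opposite sign. The replicate block, the fit of the 4 columns compared and the prior without trend cannot alter the estimate. Their signs, counted among the 57, were thus fixed in advance. With quantile normalization the change was 0.11 at MI, 0.31 at interkinesis and 0.31 at MII against stage VI, and with median-centring it was 0.20 at interkinesis, 0.21 at MII and 0.012 at MII against interkinesis. Leaving out 1 column in turn gave -0.44 to -0.16 in PG90, -0.47 to -0.089 in MI, -0.25 to 0.022 in interkinesis and -0.76 to 0.10 in MII against stage VI, -0.17 to 0.21 in MI against PG90, -0.027 to 0.36 in interkinesis against MI and -0.64 to 0.22 in MII against interkinesis. With the replicate block the change at MII was -0.33, as without it, with an SE of 0.31 against 0.35 without the block. The limma adjusted p with the block was 0.422, and the block changed no call of ifrd1.L. For the level, x alone gave a log2 ratio of 2.15 in MI and 0.088 in interkinesis, against -2.98 and -4.25 over both sets, and x and y alone ran from 0.36 to 1.46 in PG90, -8.10 to 2.15 in MI, -8.59 to 0.088 in interkinesis and -10.07 to -8.56 in MII. Taken relative to ifrd1.S, an alternative chosen after seeing the data, the mean was 0.77, -2.51, -3.33 and -8.35 at the 4 later stages. The causes of these shifts were not tested. Merging poly(A) sites changed no value of either gene, and a minimum of 10 reads left ifrd1.S no site and hence no value. Of the 5 genes most like ifrd1.L, 1 was picked again with Spearman's rho and 0 with x or y alone, in level and in share. Depth limits the poly(A) site use of ifrd1.S, which had 8 reads.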

Other observations

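The ifrd1.L levels were deposited with unequal numbers of decimals. In x the deposited values had 4 decimals in stage VI, 1 in PG90, 1 in MI, 3 in interkinesis and 4 in MII, and in y 1 in stage VI, 1 in PG90, 4 in MI, 3 in interkinesis and 4 in MII. Of the 455 levels of at least 10000 in x, 188 had 3 or more decimals, 212 had 2 and 55 had at most 1.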
